A study of Mus musculus with 24 samples.

Results

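The NRF2 antioxidant response was followed in mouse liver through 10 genes, taken by symbol from the 24137 genes that the deposited tables hold together. The regulators were Nfe2l2, which encodes the transcription factor NRF2, and Keap1, which encodes its inhibitor. Gclc and Gclm stand for glutathione synthesis, Nqo1 and Hmox1 for quinone and heme metabolism, Txnrd1 and Srxn1 for the thioredoxin system, G6pdx for the supply of NADPH, and Gpx3 for peroxide removal outside the cell. All 10 were found, all are protein-coding, and each had from 133 to 15344 reads in a library, so all 10 entered every test.

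NRF2 is held at a low level in unstressed cells because KEAP1, a sensor protein rich in reactive cysteines, hands it to a CUL3 ubiquitin ligase for degradation. Oxidants and electrophiles modify KEAP1, NRF2 then accumulates, pairs with a small MAF protein and binds antioxidant response elements near genes for glutathione synthesis, thioredoxin recycling, quinone reduction and NADPH production. The control acts mainly on NRF2 protein, which RNA counts do not measure. In liver the pathway is known for detoxification and for its study in fatty liver disease, where lipid overload and inflammation bring oxidative stress.

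RNA of whole liver from 24 adult mice was sequenced, 1 library per mouse. Control mice on the LFCF diet, which the labels call low fat, made up LF_C (n = 4). Control mice kept for 34 weeks on the HFCF diet, a model of nonalcoholic steatohepatitis, made up HF_C (n = 5). The HF_KO group (n = 5) had the same diet and a PPARγ knockout restricted to hepatocytes, induced after 24 weeks and so 10 weeks old at the end. The HF_TZD_C and HF_TZD_KO groups (n = 5 each) were control and knockout mice on the HFCF diet that received rosiglitazone maleate, a thiazolidinedione that activates PPARγ, in the diet over the last 8 weeks. The labels used here do not give the allele, the means of induction, or whether mice of a group shared a litter. They also give no time on the diet for the LF_C mice, so it cannot be set against the 34 weeks. Since the samples are whole livers, more RNA per cell and more cells of a type cannot be told apart in any result below.

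The libraries held 19.5 to 28.7 M counted reads. Pparg, the gene named as knocked out, was not lower in the libraries labelled knockout. Its level was 28.3 to 35.5 CPM (read counts relative to library size after TMM scaling) in HF_C and 57.7 to 70.2 CPM in HF_KO, and 24.5 to 30.6 CPM in HF_TZD_C and 31.7 to 62.0 CPM in HF_TZD_KO. A count over the whole gene does not show which part was deleted, so HF_KO and HF_TZD_KO are groups as labelled. A pair of libraries stood apart. LF_C replicate 4 scored -107 on the first principal component, against -77.7 to -63.3 in the rest of its group. HF_TZD_KO replicate 5 scored -57.3, against -4.19 to 17.4 in the rest of its group. Where leaving out either changed the call on a member, the value without it is given too.

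Promoter windows, from 250 bases before to 50 bases after a start site, were read from RefSeq (GRCm38.p6). They were searched on both strands for the core of the antioxidant response element, TGACNNNGC or GCNNNGTCA on the other strand. This was the single motif searched, so forms that differ from it at a fixed base were not marked. The table held windows for 8 of the 10 genes. Gclc and Hmox1 were not among them. The core was present in 5 of the 8, and in 14% of the 27025 genes in the table. The windows of Srxn1 (chr2:152105274-152105573, plus strand), Txnrd1 (chr10:82858956-82859255, plus strand), Gclm (chr3:122245307-122245606, plus strand) and Gpx3 (chr11:54902604-54902903, plus strand) are printed because the results below turn on these genes. The first 3 hold a match, in capitals, and the Gpx3 window holds none. The start site used for Gpx3 lies 401 bases inside the gene as deposited, so its window misses the deposited gene start. The match begins 29 bases after the start site in Srxn1, 92 bases before it in Txnrd1 and 134 bases before it in Gclm.
Srxn1: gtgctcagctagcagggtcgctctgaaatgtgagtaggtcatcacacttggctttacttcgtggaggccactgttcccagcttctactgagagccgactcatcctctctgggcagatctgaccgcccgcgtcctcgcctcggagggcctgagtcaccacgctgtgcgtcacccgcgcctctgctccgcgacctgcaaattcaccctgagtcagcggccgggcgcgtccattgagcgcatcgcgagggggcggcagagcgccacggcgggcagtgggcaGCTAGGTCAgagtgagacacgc
Txnrd1: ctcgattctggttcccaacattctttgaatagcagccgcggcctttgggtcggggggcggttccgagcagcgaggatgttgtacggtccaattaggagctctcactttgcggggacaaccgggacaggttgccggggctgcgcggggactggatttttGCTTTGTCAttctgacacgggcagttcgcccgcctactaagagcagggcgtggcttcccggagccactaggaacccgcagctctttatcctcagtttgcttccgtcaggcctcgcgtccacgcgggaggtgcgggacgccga
Gclm: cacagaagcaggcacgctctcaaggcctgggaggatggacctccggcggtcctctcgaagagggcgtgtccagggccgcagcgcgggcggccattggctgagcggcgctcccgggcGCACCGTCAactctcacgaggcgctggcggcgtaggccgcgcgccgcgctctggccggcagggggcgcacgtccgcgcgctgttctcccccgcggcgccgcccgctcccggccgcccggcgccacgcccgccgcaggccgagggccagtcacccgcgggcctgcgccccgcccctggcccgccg
Gpx3: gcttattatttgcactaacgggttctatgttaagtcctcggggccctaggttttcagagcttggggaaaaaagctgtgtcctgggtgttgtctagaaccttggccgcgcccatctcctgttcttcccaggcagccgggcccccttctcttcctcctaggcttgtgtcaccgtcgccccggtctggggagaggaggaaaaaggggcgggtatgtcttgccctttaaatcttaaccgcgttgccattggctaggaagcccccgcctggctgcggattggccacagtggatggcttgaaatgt

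The other matches lay in Nfe2l2 itself, 240 bases before the start site, and in G6pdx, 57 bases before it. The start site used for G6pdx lies inside the gene as deposited, and so does its match. Both matches are printed with 6 bases on each side. Keap1 and Nqo1 had no match in their windows, and neither did the windows of the other Txnrd1 start sites. A match is a match of letters only, and its absence says nothing of other forms of the element or of more distant elements.
Nfe2l2: cccaccTGACTCCGCcatgcc
G6pdx: gggtcaGCTCAGTCAaagcac

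The 10 genes moved little as a group. Between HF_C and LF_C, the comparison that asks what the diet changed, 1 of the 10 passed the test (Gpx3, higher), while 40.6% of the 14772 genes tested passed. The test here and below was edgeR's quasi-likelihood test, two-sided, with Benjamini-Hochberg adjustment over all genes of the comparison and a threshold of 0.05. None passed between HF_KO and HF_C, which asks what the labelled knockout changed and where 1.02% of all genes passed. None passed between HF_TZD_C and HF_C, the effect of rosiglitazone in control mice, where 5.3% of all genes passed. None passed between HF_TZD_KO and HF_KO, the effect of rosiglitazone in knockout mice, where 0.735% of all genes passed. None passed between HF_TZD_KO and HF_TZD_C, the labelled knockout under rosiglitazone, although 16.3% of all genes did. In the 4 comparisons without a call, 3, 2, 4 and 0 members, in this order, had an unadjusted edgeR p under 0.05, beside 11.1%, 19.1%, 15.3% and 30.6% of all genes. In DESeq2 0, 0, 2 (Nqo1 and Srxn1) and 0 members passed.

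The median log2 fold change of the 10 genes was 0.16 between HF_C and LF_C, and ran from -0.13 to 0.08 in the other 4 comparisons, beside a median of all genes of -0.03 in the first and of -0.01 to 0.00 in the others. Without Gpx3, the 95% intervals of the diet effect ran from -0.46 at the lowest bound to 1.02 at the highest. A p above the threshold does not show that a gene stayed the same. When libraries were scaled by their totals only, the all-gene median between HF_C and LF_C moved to 0.24, and Nfe2l2 and Hmox1 passed beside Gpx3. HF_C serves in 3 of these comparisons, and HF_KO, HF_TZD_C and HF_TZD_KO in 2 each, so the comparisons are not independent.

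**Figure D1:**
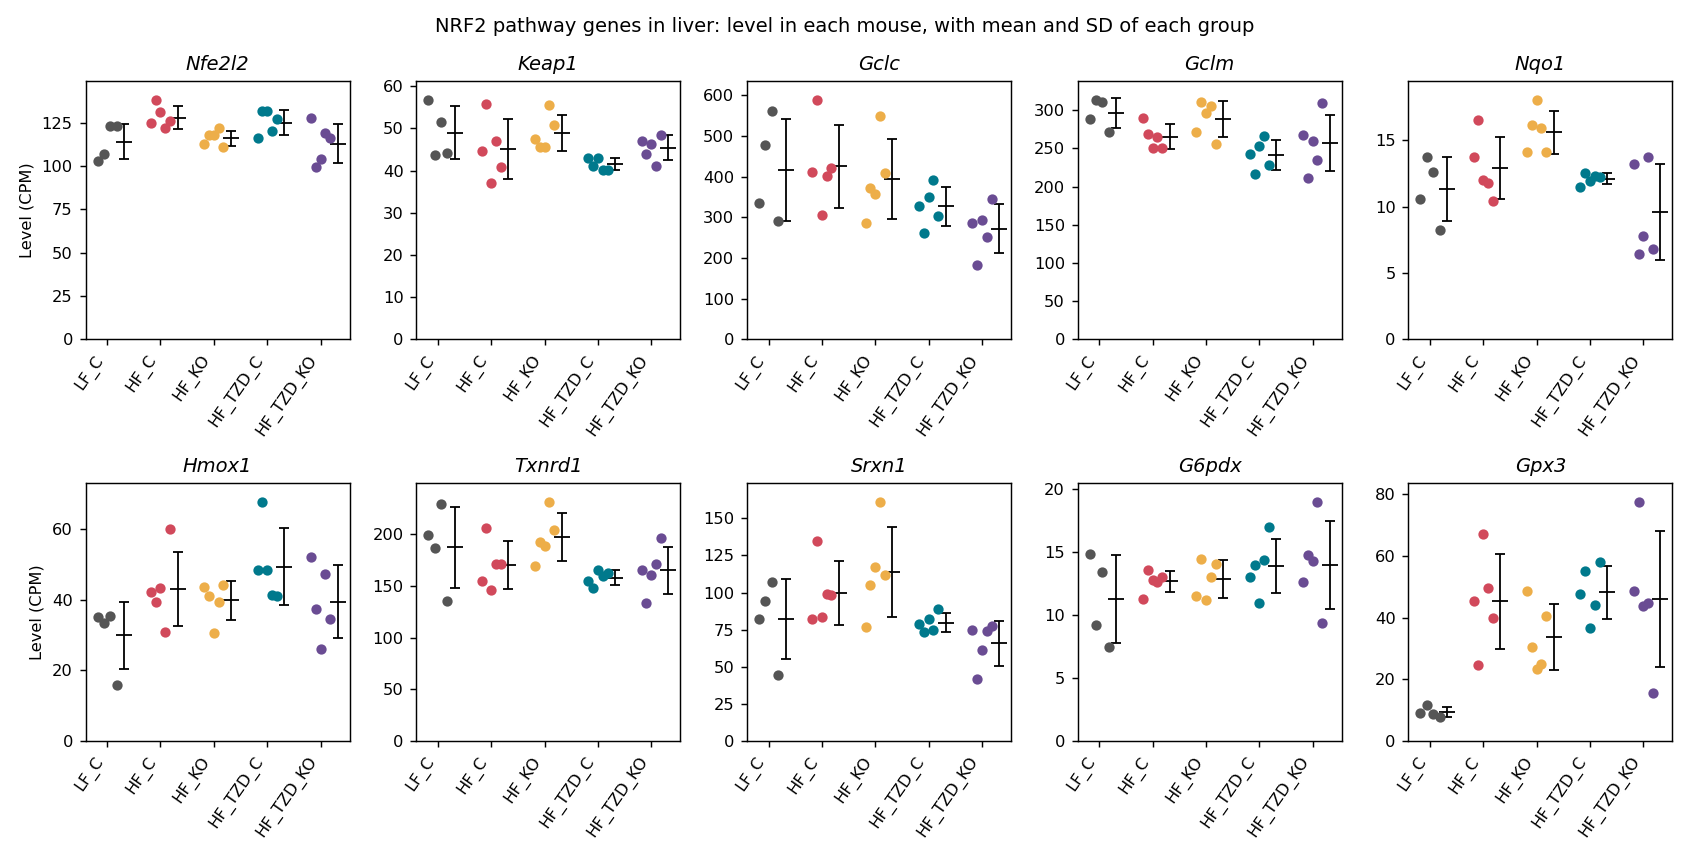
Level of each of the 10 genes in every mouse, in CPM on a linear axis from 0, by group. Points are mice (n = 4 in LF_C, n = 5 in the other groups), and the black bar beside them is the group mean with its SD. Gpx3 separates LF_C (7.9 to 11.7 CPM) from all other libraries (15.7 CPM and more), while the other genes overlap between neighbouring groups.

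Per length of gene, in the authors' FPKM, Gclc was the most abundant of the 10 in every group. In HF_C the mean was 130 FPKM for Gclc, 57.6 for Gclm, 54.7 for Nfe2l2, 52.2 for Txnrd1 and 37.1 for Srxn1. The remaining means in HF_C were 30.3 FPKM for Gpx3, 28.3 for Hmox1, 10.6 for Keap1, 8.72 for Nqo1 and 5.04 for G6pdx. In LF_C, Gpx3 had a mean of 5.25 FPKM and was below all members but G6pdx, at 3.79. These FPKM values are compared between genes within a group only, since they lack the TMM scaling that the CPM here carry.

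The regulators were among the steadiest of the 10 genes. Nfe2l2 (ENSMUSG00000015839, chromosome 2, 75675513 to 75704641, minus strand, GRCm38) averaged 114 ± 10.2 CPM in LF_C (SD, n = 4) and 128 ± 6.41 CPM in HF_C (n = 5). The HF_KO mean was 116 ± 4.46 CPM, and the rosiglitazone means were 125 ± 7.25 CPM in control and 113 ± 11.4 CPM in knockout mice (n = 5 each). All 24 libraries lay between 99.5 and 138 CPM, the ratio of the highest to the lowest group mean was 1.13, and every pair of neighbours in the order of means overlapped. The log2 fold change from HF_C to HF_KO was -0.13 (SE 0.05, interval -0.25 to -0.02), with an adjusted p of 0.352 in edgeR. All 5 HF_KO libraries were below the HF_C mean, but the highest HF_KO library equalled the lowest of HF_C at this rounding, 122 CPM.

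Keap1 (ENSMUSG00000003308, chromosome 9, 21229730 to 21239332, minus strand) had mean levels from 41.5 ± 1.42 CPM in HF_TZD_C (SD, n = 5) to 49.0 ± 6.22 CPM in LF_C (n = 4). The HF_TZD_C libraries, 40.1 to 43.1 CPM, all lay below the LF_C libraries, 43.7 to 56.7 CPM. That comparison, with diet and drug changed together, gave a log2 fold change of -0.23 (SE 0.09, interval -0.43 to -0.04) and an edgeR adjusted p of 0.0476. The call is a narrow one. It was lost in DESeq2 (adjusted p 0.0526), and in edgeR without the filter on low counts (adjusted p 0.0788) and with the replicate block (0.101). It was also lost without any of 7 of the 9 libraries (LF_C replicate 1 or 3, or any HF_TZD_C library, adjusted p 0.0593 to 0.152). Under library totals alone the value was 0.03. Of the Keap1 exon bases, 10.9% are shared with Gm16754 on the other strand, which had a mean level of 0.751 CPM.

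Glutamate-cysteine ligase, the rate-limiting enzyme of glutathione synthesis, has a catalytic subunit (Gclc) and a modifier subunit (Gclm). Gclc (ENSMUSG00000032350, chromosome 9, 77754535 to 77794485, plus strand) measured 336, 479, 561 and 292 CPM in the LF_C mice, in replicate order as in all lists of values here. The HF_C mice had 412, 588, 306, 402 and 422 CPM, and the HF_KO mice 285, 372, 357, 549 and 409 CPM. With rosiglitazone, HF_TZD_C mice had 329, 262, 349, 391 and 304 CPM and HF_TZD_KO mice 287, 182, 293, 252 and 344 CPM. The rosiglitazone groups had the lowest means, 327 ± 48.4 and 272 ± 59.9 CPM (SD, n = 5 each), yet their libraries overlapped those of every other group.

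The drug effect on Gclc was -0.38 in control mice (SE 0.15, interval -0.70 to -0.06, edgeR adjusted p 0.169) and -0.53 in knockout mice (SE 0.18, interval -0.92 to -0.14, adjusted p 0.176), both on the log2 scale. All 5 libraries were below the mean of the group without the drug in both. In control mice it passed without HF_C replicate 3, the lowest of its group (-0.48, adjusted p 0.0437). The drug effect in knockout mice minus that in control mice was -0.15 (interval -0.68 to 0.37, adjusted p 0.825). Against LF_C, Gclc in HF_TZD_KO was at -0.62 (SE 0.21, interval -1.07 to -0.17, adjusted p 0.0635). It passed without LF_C replicate 4 (-0.76, adjusted p 0.0371), without HF_TZD_KO replicate 5 (-0.70, adjusted p 0.0303) and in DESeq2 (adjusted p 0.0292).

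Gclm (ENSMUSG00000028124, chromosome 3, 122245557 to 122269984, plus strand) was the steadier subunit, with a pooled within-group SD of 0.14 on the log2 scale against 0.34 for Gclc. The LF_C mice had 288, 313, 311 and 271 CPM, the HF_C mice 290, 269, 250, 265 and 250 CPM, and the HF_KO mice 271, 311, 296, 306 and 256 CPM. The HF_TZD_C mice had 242, 216, 253, 266 and 228 CPM, and the HF_TZD_KO mice 268, 211, 260, 235 and 309 CPM. Every HF_TZD_C library was below every LF_C library, while groups next to each other in the order of means overlapped. The HF_TZD_C to LF_C log2 fold change was -0.29 (SE 0.08, interval -0.46 to -0.11) and passed (edgeR adjusted p 0.0122). It was -0.03 with library totals alone (adjusted p 0.822), where the median of all genes in that comparison moved to 0.26. With the replicate block it was -0.27 and did not pass (edgeR adjusted p 0.0662). The diet effect itself was -0.17 (interval -0.35 to 0.00, adjusted p 0.106) with all libraries and -0.22 (adjusted p 0.0297) without LF_C replicate 4.

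NQO1 reduces quinones with NADH or NADPH and is a much used marker of NRF2 activity. Nqo1 (ENSMUSG00000003849, chromosome 8, 107388225 to 107403206, minus strand) measured 10.6, 13.7, 12.6 and 8.2 CPM in the LF_C mice. The HF_C mice had 13.7, 16.5, 12, 11.8 and 10.4 CPM. The HF_KO mice had 14.1, 16.1, 18, 15.9 and 14.1 CPM, the highest group mean, 15.6 ± 1.62 CPM (SD, n = 5). The drug-treated control mice had 11.5, 12.5, 11.9, 12.3 and 12.2 CPM, and the drug-treated knockout mice 13.2, 6.41, 7.81, 13.7 and 6.82 CPM. HF_TZD_C was the tightest group, with an SD of 0.409 CPM, and HF_TZD_KO the widest, with an SD of 3.58 CPM, in which 3 libraries lay between 6.41 and 7.81 CPM and the others at 13.2 and 13.7 CPM.

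All HF_TZD_KO libraries lay below all HF_KO libraries in Nqo1, a separation that 4.32% of the 14559 genes tested showed in one direction or the other. The log2 fold change was -0.69 (SE 0.21, interval -1.14 to -0.24), and the adjusted p was 0.13 in edgeR and 0.037 in DESeq2. Without HF_TZD_KO replicate 5 it was -0.60 (edgeR adjusted p 0.183). In the authors' deposited table of this comparison, Nqo1 had a log2 fold change of -0.529 with an adjusted p of 0.0358. The test of the difference between the drug effect in knockout and in control mice gave -0.60 for Nqo1 (interval -1.11 to -0.09, unadjusted p 0.0234, edgeR adjusted p 0.222). No member passed that test, in which 2.45% of all genes passed, and Nqo1 was the single member with an unadjusted p under 0.05, beside 16.0% of all genes. Against LF_C, 2 members passed in HF_KO, Nqo1 and Gpx3, both higher, beside 36.4% of all genes and 20% in that direction. The Nqo1 value there was 0.46 (SE 0.15, interval 0.14 to 0.78, adjusted p 0.0268). It was lost without LF_C replicate 1 (adjusted p 0.0621), HF_KO replicate 2 (0.0553) or HF_KO replicate 3 (0.0639), and in the fit of all 24 libraries (edgeR adjusted p 0.0513).

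Heme oxygenase 1 breaks down heme to biliverdin, iron and carbon monoxide, and macrophages that clear red cells also make it. Hmox1 (ENSMUSG00000005413, chromosome 8, 75093591 to 75100596, plus strand) measured 35.0, 33.3, 35.5 and 15.9 CPM in the LF_C mice, with replicate 4 far below the rest. In HF_C it measured 42.1, 39.5, 43.2, 31.0 and 60.0 CPM, and in HF_KO 43.7, 41.0, 30.7, 39.5 and 44.1 CPM. In HF_TZD_C it measured 48.5, 67.7, 48.3, 41.3 and 41.1 CPM, and in HF_TZD_KO 52.1, 37.4, 26.1, 47.3 and 34.5 CPM. LF_C had the lowest mean, 29.9 ± 9.41 CPM (SD, n = 4), and only HF_TZD_C did not overlap it. The diet effect was 0.51 on the log2 scale (SE 0.23, interval 0.01 to 1.02, edgeR adjusted p 0.0946), and 0.30 (adjusted p 0.169) without LF_C replicate 4. Between HF_TZD_C and LF_C it was 0.73 (SE 0.22, interval 0.25 to 1.20, adjusted p 0.0163), and 0.52 (adjusted p 0.0112) without that library. In the same comparison 4 members passed (Gpx3 and Hmox1 higher, Gclm and Keap1 lower), beside 46.3% of all genes, 24.7% higher and 21.6% lower. In all 4 the groups did not overlap, which 38.9% of all genes shared.

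Thioredoxin reductase 1 is a selenoprotein that keeps thioredoxin reduced, and sulfiredoxin 1 restores peroxiredoxins that peroxide has over-oxidised. Srxn1 (ENSMUSG00000032802, chromosome 2, 152105516 to 152111376, plus strand) measured 82.5, 94.1, 107 and 44.4 CPM in the LF_C mice. The HF_C values were 82.0, 135, 83.7, 99 and 98.5 CPM, and the HF_KO values 77.1, 105, 117, 161 and 112 CPM, the widest range. The HF_TZD_C values were 78.6, 73.2, 82.3, 75.0 and 89.0 CPM, and the HF_TZD_KO values 74.5, 41.6, 61.4, 74.1 and 77.8 CPM. HF_KO replicate 4 was the highest and HF_TZD_KO replicate 2 the lowest of all 24 libraries.

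Srxn1 did not pass for rosiglitazone at either genotype in the edgeR fit reported here. In knockout mice the log2 fold change was -0.79 (SE 0.19, interval -1.21 to -0.37, edgeR adjusted p 0.0765), the lowest value of the 10 genes in that comparison, with 5 of 5 libraries below the HF_KO mean and an overlap of 1 HF_KO library, replicate 1, with the highest of HF_TZD_KO. In control mice it was -0.32 (SE 0.12, interval -0.57 to -0.07, adjusted p 0.144), with 5 of 5 libraries below the HF_C mean. The difference between these was -0.47 (interval -0.97 to 0.04, adjusted p 0.363). In the authors' deposited table for the knockout mice, Srxn1 had a log2 fold change of -0.620 and an adjusted p of 0.00582, and Srxn1 and Nqo1 were the members under 0.05 there, beside 4.28% of the genes with an adjusted p. DESeq2 run here on the same counts gave 0.00602. In edgeR, Srxn1 passed with library totals alone (adjusted p 0.0378), without the filter (0.0409), in the fit of all 24 libraries (0.035) and, at -0.90, without HF_KO replicate 1 (0.0425). Without HF_TZD_KO replicate 5 it was at -0.86 (edgeR adjusted p 0.0648).

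Txnrd1 (ENSMUSG00000020250, chromosome 10, 82859206 to 82897724, plus strand) moved less. It averaged 187 ± 39.1 CPM in LF_C (SD, n = 4), 170 ± 22.8 CPM in HF_C and 197 ± 23.0 CPM in HF_KO. With rosiglitazone it averaged 158 ± 6.85 CPM in control and 165 ± 22.7 CPM in knockout mice (n = 5 each). Every pair of neighbours in that order of means overlapped. The value from HF_KO to HF_TZD_KO was -0.25 (interval -0.48 to -0.02, edgeR adjusted p 0.295), and from HF_C to HF_KO it was 0.22 (interval 0.01 to 0.43, adjusted p 0.426).

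The comparison of HF_TZD_C with LF_C turned on 1 library for several members. With LF_C replicate 4 left out, 7 members passed instead of 4. Gclc was then at -0.49 (edgeR adjusted p 0.0186), Txnrd1 at -0.37 (adjusted p 0.00147) and Srxn1 at -0.24 (adjusted p 0.0409), against -0.34, -0.24 and -0.04 with it.

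Glucose-6-phosphate dehydrogenase, the entry enzyme of the pentose phosphate pathway, supplies NADPH to the reductases above. G6pdx (ENSMUSG00000031400, chromosome X, 74409483 to 74429194, minus strand) was the member with the lowest FPKM in every group. It averaged 11.3 ± 3.51 CPM in LF_C (SD, n = 4), 12.7 ± 0.834 CPM in HF_C and 12.9 ± 1.5 CPM in HF_KO. With rosiglitazone it averaged 13.9 ± 2.17 CPM in control and 14 ± 3.49 CPM in knockout mice (n = 5 each), and all groups overlapped. The diet effect was 0.16 (interval -0.24 to 0.55, edgeR adjusted p 0.52). The counts were not strand specific, and 13.6% of the exon bases of G6pdx are shared with Ikbkg on the other strand, which had a mean of 92.1 CPM, so part of the G6pdx reads cannot be assigned between them.

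**Figure D2:**
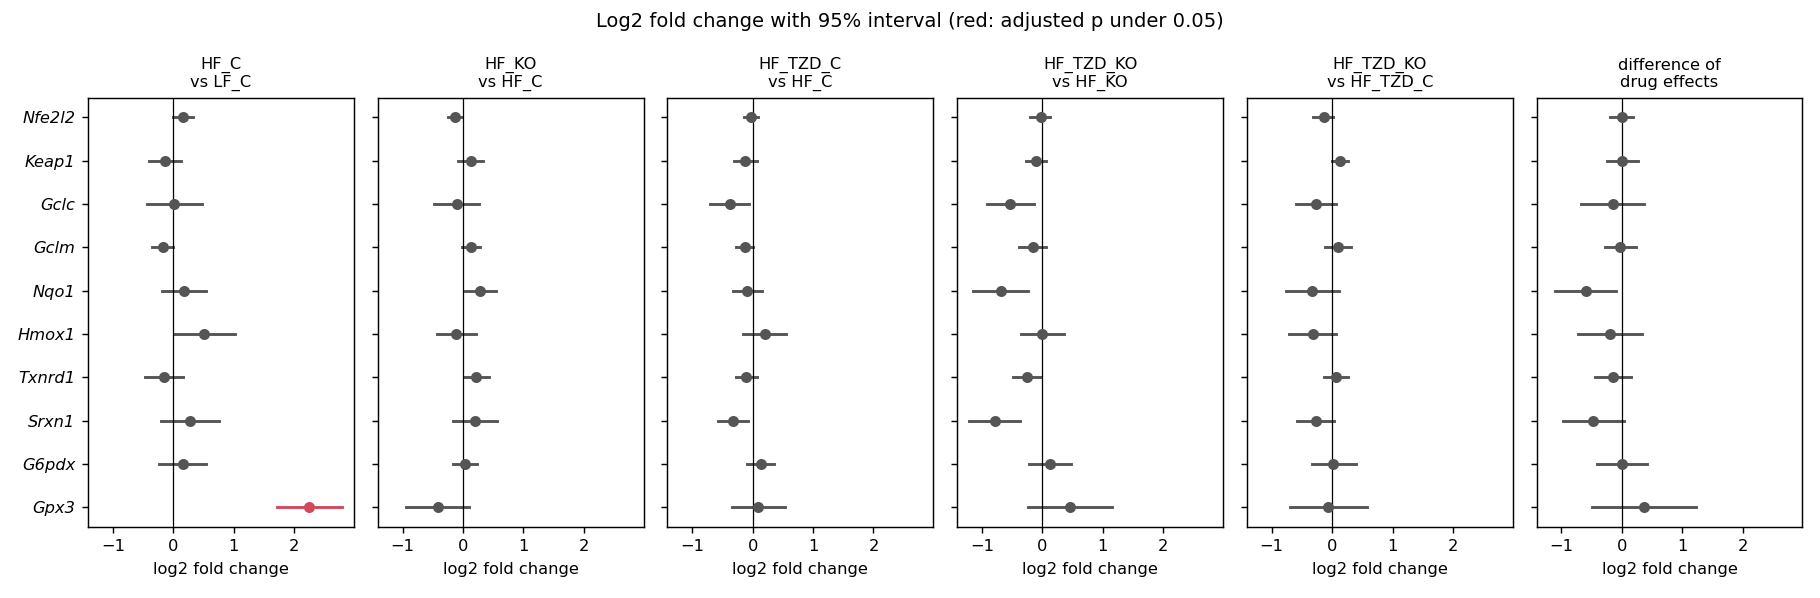
Log2 fold change of the 10 genes in the 5 comparisons the study states and in the test of the difference between drug effects, with 95% intervals. Red marks an edgeR adjusted p under 0.05, which in these panels is Gpx3 between HF_C and LF_C at 2.25. The intervals of Srxn1, Nqo1, Gclc and Txnrd1 between HF_TZD_KO and HF_KO lie below 0 without an adjusted p under the threshold. Other panels also hold intervals that leave out 0 without such a p.

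Gpx3, which encodes the secreted selenium-dependent glutathione peroxidase of plasma, was the 1 member that passed between HF_C and LF_C, and it was higher in HF_C. Gpx3 (ENSMUSG00000018339, chromosome 11, 54902453 to 54910377, plus strand) measured 9.18, 11.7, 8.85 and 7.90 CPM in the LF_C mice. It measured 45.5, 24.6, 66.9, 49.4 and 39.7 CPM in the HF_C mice and 48.6, 30.6, 23.4, 25.1 and 40.6 CPM in the HF_KO mice. It measured 47.7, 55, 36.6, 43.9 and 57.8 CPM in the HF_TZD_C mice and 48.5, 77.4, 43.7, 44.6 and 15.7 CPM in the HF_TZD_KO mice. All 20 libraries on the HFCF diet lay above all 4 on the LFCF diet, and the nearest was HF_TZD_KO replicate 5. Between HF_C and LF_C alone, 33.6% of all genes had groups that did not overlap.

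From LF_C to HF_C, Gpx3 was 4.77-fold higher, a log2 fold change of 2.25 (SE 0.24, interval 1.72 to 2.79, edgeR adjusted p 4.07e-05, 5 of 5 libraries above the LF_C mean). The authors' deposited table gave 2.16 for it with an adjusted p of 6.28e-20, in a comparison where 34.7% of the genes with an adjusted p were under 0.05. Against LF_C it was 1.83 in HF_KO (interval 1.36 to 2.30, adjusted p 6.68e-05), 2.36 in HF_TZD_C (interval 2.03 to 2.70, adjusted p 9.31e-07) and 2.29 in HF_TZD_KO (interval 1.53 to 3.05, adjusted p 0.00252). In HF_TZD_KO it was the single member that passed, beside 15.2% of all genes and 9.67% in the upward direction. These 4 comparisons share the LF_C libraries. Without LF_C replicate 4 the diet effect was 2.17 (adjusted p 0.000135), and without HF_TZD_KO replicate 5 the last value was 2.53 (adjusted p 3.31e-05).

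Among the groups on the HFCF diet Gpx3 showed no call. The value was -0.42 from HF_C to HF_KO (interval -0.95 to 0.10, edgeR adjusted p 0.582), 0.09 from HF_C to HF_TZD_C (interval -0.35 to 0.53, adjusted p 0.858) and 0.46 from HF_KO to HF_TZD_KO (interval -0.23 to 1.16, adjusted p 0.539). The value from HF_TZD_C to HF_TZD_KO was -0.06 (interval -0.70 to 0.57, adjusted p 0.919), and 0.15 without replicate 5 of the latter.

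Markers of other liver cells moved with Gpx3 under the diet. In counts of list genes here and below, rose and fell mean that a gene passed in that direction. Of the recruited macrophage markers 8 of 9 rose, of the cholangiocyte markers 7 of 8, of the stellate cell and myofibroblast markers 6 of 7 and of the lymphocyte markers 4 of 7. Spp1 stands in both the macrophage and the cholangiocyte list, so these share a gene in their counts and summed levels. The background for a rise in that comparison was 21.4% of all genes. The summed level of the macrophage list was 150 to 274 CPM in LF_C and 939 to 1860 CPM in HF_C, that of the cholangiocyte list 76.7 to 120 and 585 to 1310 CPM, and that of the stellate list 130 to 195 and 447 to 648 CPM. No marker of these lists was at 0 in any group. Of the Kupffer cell markers 3 of 7 fell, of the endothelial markers 2 of 6 and of the erythrocyte markers 4 of 5, and both adipocyte markers tested rose. Of the hepatocyte markers 10 of 12 fell, from a summed level of 90100 to 125000 CPM down to 55100 to 64100 CPM. HF_TZD_KO replicate 5 had the lowest Gpx3 on this diet. It also had the lowest sums there of the macrophage (334 CPM), cholangiocyte (245 CPM) and stellate (205 CPM) lists. The same held for the endothelial (197 CPM), lymphocyte (26.6 CPM) and adipocyte lists, so its low sums were not limited to lists whose markers rose. Its Kupffer cell and erythrocyte sums were not the lowest, and its hepatocyte sum (122000 CPM) was the highest on this diet. The part of these cells in the Gpx3 difference was not tested.

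The genes whose pattern over the 24 libraries was most like that of Gpx3, chosen by the smallest root mean square difference of centred log2 CPM among 11760 protein-coding genes of at least 2 CPM, were Crispld2 (0.26), Cacna2d1, an auxiliary calcium channel subunit (0.27), and Gsn (0.27). Gsn, which encodes the actin-severing protein gelsolin, averaged 35.3 CPM in LF_C, 117 CPM in HF_C and 99.2 CPM in HF_KO, and with rosiglitazone 129 CPM in control and 134 CPM in knockout mice. Gpx3 was put through this search after its values were seen, because no member passed in enough of the stated comparisons to enter by the rule.

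Within groups, mice differed most in Gpx3, with a pooled SD of 0.52 on the log2 scale, followed by Hmox1 (0.37), Srxn1 (0.36), Gclc (0.34), Nqo1 (0.31), G6pdx (0.29) and Txnrd1 (0.20). Keap1 and Gclm were at 0.14 and Nfe2l2 at 0.10. Gclc, Srxn1 and Txnrd1, a set of 3 picked after their values were seen, went up and down together between mice. In 4 of the 5 groups all 3 were highest in the same library (LF_C replicate 3, HF_C replicate 2, HF_KO replicate 4 and HF_TZD_KO replicate 5). In 4 of the 5 all 3 were lowest in the same library (LF_C replicate 4, HF_KO replicate 1, HF_TZD_C replicate 2 and HF_TZD_KO replicate 2). Nfe2l2 itself varied by a ratio of 1.39 between the highest and the lowest of all 24 libraries, Srxn1 by 3.87 and Gclc by 3.23.

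Gpx3 and these genes stood at opposite ends in some groups. The library highest in Gpx3 was the lowest in Txnrd1 in 3 of the 5 groups, in Gclc in 3 and in Srxn1 in 2. The library lowest in Gpx3 was the highest in Txnrd1 in 3 of the 5 groups, in Gclc in 2 and in Srxn1 in 2. In LF_C, replicate 4 was the lowest in Gpx3 and in all 3 of them. HF_TZD_KO replicate 2 had the highest Gpx3 of all 24 libraries and the lowest Nfe2l2, Gclc, Gclm, Nqo1, Txnrd1 and Srxn1. LF_C replicate 4 was the lowest of its group in 8 of the 10 genes. These are descriptions of single mice, and values within a library share its scaling.

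**Figure D3:**
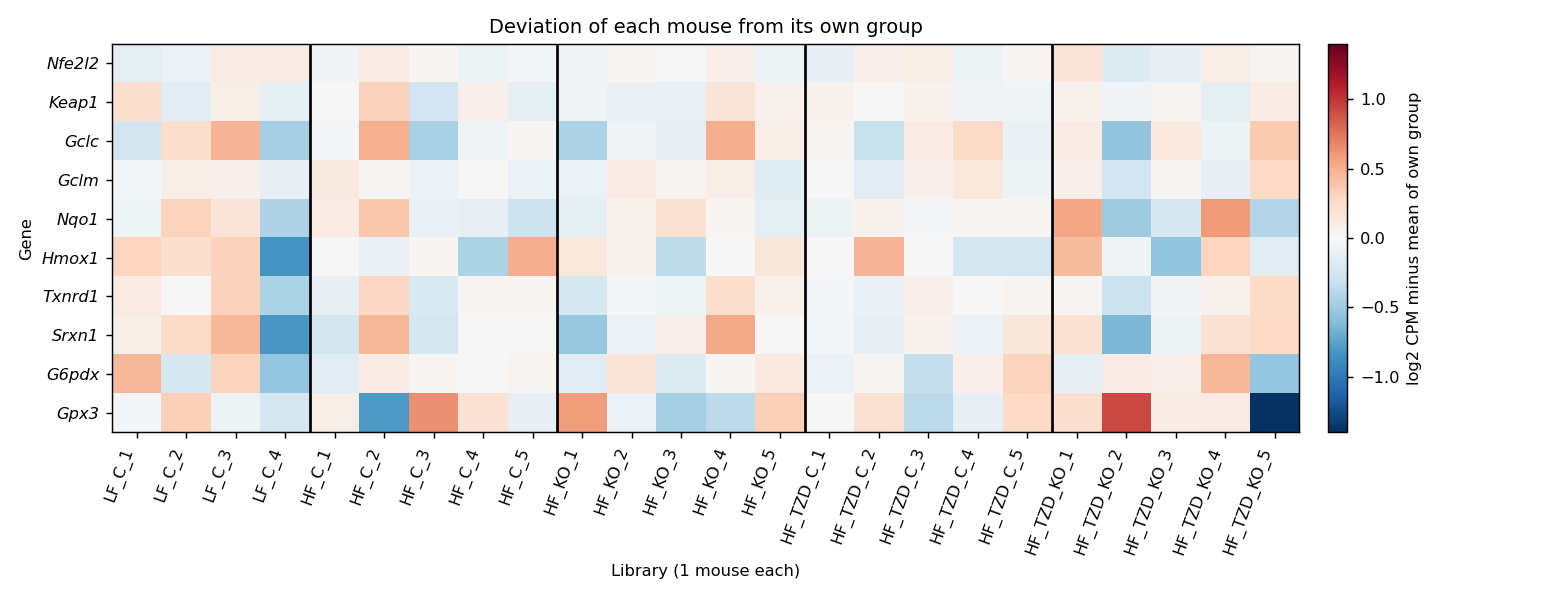
Log2 CPM of each gene in each library minus the mean of the library's own group, as colour from blue (below the mean) to red (above), with black lines between groups. The rows of Gclc, Txnrd1 and Srxn1 take the same colour in most columns. Columns where Gpx3 takes the opposite one include HF_C replicates 2 and 3 and HF_KO replicates 1 and 4. They also include HF_TZD_C replicates 2 and 3 and HF_TZD_KO replicates 2 and 5. In other columns, such as LF_C replicate 4 and HF_TZD_KO replicate 1, Gpx3 takes the same one.

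Around the 10 genes, 125 further genes of redox metabolism in 9 lists were read from the same fits. Under the diet 63 of the 120 tested passed, 28 higher and 35 lower, beside backgrounds of 21.4% higher and 19.2% lower among all genes. The median of their log2 fold changes was -0.04, beside -0.03 for all genes tested. This split depended on the scaling. With library totals alone 46 were higher and 12 lower, with a median of 0.22 beside 0.24 for all genes, so the directions below are relative to the bulk of genes. Of the 9 oxidant producing enzymes tested, 6 rose and 3 fell (median 1.03). Among them were the phagocyte NADPH oxidase subunits Cyba (1.46, SE 0.11) and Ncf4 (1.39, SE 0.20). Which cells these reads came from was not tested. Of the 4 genes for superoxide and peroxide removal 3 fell and 1 rose (median -0.50). Cat, the catalase of peroxisomes, was at -0.63 (SE 0.11) and Sod2, the mitochondrial superoxide dismutase, at -0.45 (SE 0.07), while Sod3, the extracellular one, was at 0.78 (SE 0.12). Their edgeR adjusted p was at most 0.00119.

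Of the 19 other NRF2 target genes tested, 8 rose and 1 fell with the diet (median 0.21). Osgin1, an oxidative stress induced growth inhibitor, rose by 1.20 (SE 0.15, edgeR adjusted p 8.9e-05), Cbr3, a carbonyl reductase, by 2.08 (SE 0.43, adjusted p 0.00235) and the efflux transporter gene Abcc4 by 1.07 (SE 0.24, adjusted p 0.00363). Osgin1 had a mean level of 78.7 ± 16.9 CPM in LF_C (SD, n = 4) and 182 ± 27.0 CPM in HF_C (SD, n = 5). Of the 17 regulators and partners, 2 rose and 3 fell (median 0.04), against 6 and 0 with library totals alone, and the changes included the small MAF partners of NRF2 in both directions. Mafk was at 0.42 (SE 0.09), Maff at 0.77 (SE 0.17) and Mafg at -0.41 (SE 0.10), with an edgeR adjusted p of at most 0.00476.

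Of the 23 glutathione genes tested, 9 rose and 8 fell with the diet (median 0.07), against 12 and 3 with library totals alone. They included Gpx7, a peroxidase of the endoplasmic reticulum, at 1.69 (SE 0.22), the glutathione-degrading Chac2 at -0.66 (SE 0.10) and 5-oxoprolinase, Oplah, at -0.50 (SE 0.08). Of the 16 thioredoxin and peroxiredoxin genes none rose and 5 fell (median -0.16), against 3 and 1 with library totals alone (median 0.10), with methionine sulfoxide reductase Msrb1 at -0.73 (SE 0.11), Txnrd3 at -0.59 (SE 0.12) and mitochondrial thioredoxin Txn2 at -0.45 (SE 0.11). Of the 14 selenoprotein and selenium genes 1 rose and 6 fell (median -0.16), against 4 and 2 with library totals alone (median 0.11). Sepsecs, which makes selenocysteine on its tRNA, was at -0.61 (SE 0.07), selenocysteine lyase, Scly, at -0.61 (SE 0.10) and selenophosphate synthetase, Sephs2, at -0.38 (SE 0.08), while the selenoprotein gene Gpx3 rose. Of the 9 heme and iron genes 1 rose and 5 fell (median -0.22), against 1 and 2 with library totals alone (median 0.04), including the iron exporter gene Slc40a1 at -0.62 (SE 0.10), Alas1 at -1.12 (SE 0.23) and ferritin heavy chain, Fth1, at -0.29 (SE 0.08). Of the 9 NADPH supply genes 1 passed (3, all higher, with library totals alone), Idh1 at -0.28 (SE 0.10, edgeR adjusted p 0.0487), a call that was lost with DESeq2's size factors in edgeR (adjusted p 0.0538), without the filter (0.0701), with the replicate block (0.106) and without any 1 of 7 of the 9 libraries (all but LF_C replicate 4 and HF_C replicate 2, adjusted p 0.0811 to 0.116). The adjusted p of the other genes named here was at most 0.0139. Of the genes named for the diet, Mafg, Txnrd3, Txn2, Sephs2, Fth1 and Idh1 did not pass with library totals alone, though each kept its sign.

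**Figure D4:**
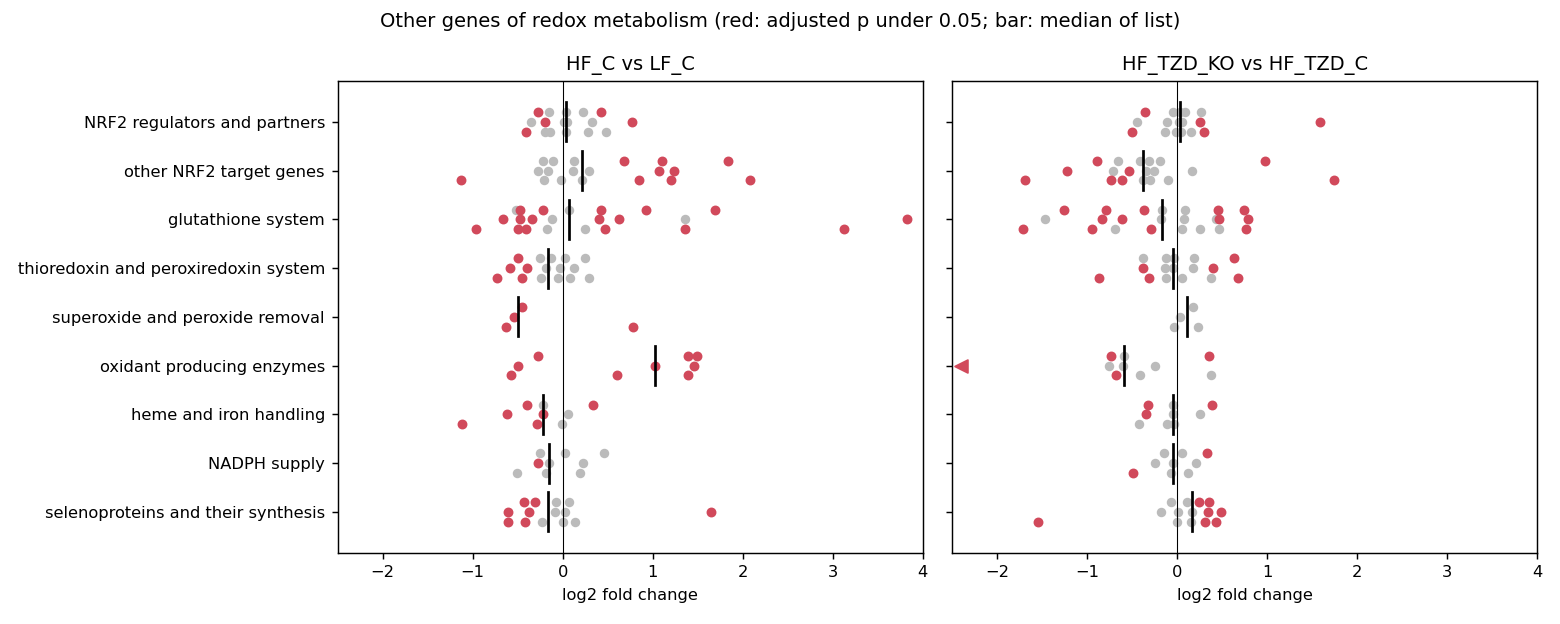
Log2 fold change of the 125 further redox genes by list, for the diet (HF_C vs LF_C) and for the labelled knockout under rosiglitazone (HF_TZD_KO vs HF_TZD_C). Each point is a gene, red where the edgeR adjusted p is under 0.05, and the black bar is the median of the list. The triangle at the left edge stands for Duoxa1, with 0 counts in all 5 HF_TZD_KO libraries, whose fitted value lies beyond the axis.

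Between HF_KO and HF_C 2 of the 121 further genes tested passed, both lower, beside 1.02% of all genes. Mgst3, a microsomal glutathione transferase, was at -0.59 (SE 0.08, edgeR adjusted p 0.00532, and 0.0512 in the fit of all 24 libraries) and Abcc3, a basolateral efflux transporter of conjugates, at -0.79 (SE 0.12, adjusted p 0.00883). Between HF_TZD_KO and HF_TZD_C, where 16.3% of all genes passed, 48 of 121 did, 22 higher and 26 lower, beside 8.53% higher and 7.81% lower among all genes. With library totals alone the split was 13 higher and 49 lower, with the median of all genes at -0.16. Abcc3 was at -1.69 (SE 0.08, adjusted p 9.68e-08), with 537 to 579 CPM in HF_TZD_C and 158 to 200 CPM in HF_TZD_KO. Mgst3 was at -1.71 (SE 0.16) and Gpx4, the peroxidase that protects membrane lipids, at -0.79 (SE 0.07), with 455 to 509 CPM in HF_TZD_C and 244 to 298 CPM in HF_TZD_KO. None of the 10 members passed in either comparison, as given above.

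In the same comparison of HF_TZD_KO with HF_TZD_C, 6 of 19 other NRF2 targets fell and 2 rose (median -0.38), including the glycine transporter gene Slc6a9 at -0.89 (SE 0.08) and Cyp2a5 at 1.74 (SE 0.20). Of the 23 glutathione genes 8 fell and 5 rose (median -0.17), of the 16 thioredoxin genes 3 rose and 3 fell (median -0.04), and of the 14 selenoprotein genes 6 rose and 1 fell (median 0.17). With library totals alone the selenoprotein split was 1 higher and 2 lower and the thioredoxin split 3 higher and 6 lower. Prdx4, the peroxiredoxin of the secretory pathway, was at 0.63 (SE 0.08), Msrb1 at 0.68 (SE 0.09), Txnip, which binds and inhibits thioredoxin, at -0.87 (SE 0.20) and the deiodinase Dio1 at -1.55 (SE 0.18). Their edgeR adjusted p was at most 0.00935. Duoxa1, a maturation factor of a dual oxidase, had 29 to 44 counts in the HF_TZD_C libraries and 0 in every HF_TZD_KO library. Of the 12 hepatocyte markers 10 rose in this comparison, from a summed level of 46400 to 57600 CPM to 85700 to 122000 CPM, and both adipocyte markers tested fell, from a list sum of 520 to 862 CPM to 14 to 71.6 CPM (Adipoq and Retn at 0 in HF_TZD_KO). Their part in these values was not tested.

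Rosiglitazone moved 18 of 122 genes in control mice, 9 in each direction, beside 2.69% higher and 2.61% lower among all genes. Mgst3 was at 0.92 (SE 0.10), Abcc4 at 0.96 (SE 0.12), Alas1, which starts heme synthesis, at 1.11 (SE 0.16), Txnip at 0.75 (SE 0.13) and Cyp2e1, a cytochrome P450 that releases oxidants, at 0.66 (SE 0.12). Glutathione synthetase, Gss, was at -0.44 (SE 0.07), Gstp1 at -0.72 (SE 0.15) and Msrb1 at -0.40 (SE 0.07), and the edgeR adjusted p of all these was at most 0.0131. The fit of all 24 libraries gave 8 calls in place of 18, and Cyp2e1 did not pass in it (adjusted p 0.0564). Both adipocyte markers tested rose here too, and 3 of 12 hepatocyte markers fell (median -0.22), with a summed level of 55100 to 64100 CPM in HF_C and 46400 to 57600 CPM in HF_TZD_C. In knockout mice 1 of 120 passed, beside 0.735% of all genes, the stress-induced sestrin gene Sesn2 at -0.54 (SE 0.11, adjusted p 0.0453), and 33 had an unadjusted p under 0.05, beside 15.3% of all genes. There 2 of 12 hepatocyte markers rose and 10 had an unadjusted p under 0.05 (median 0.48), with a summed level of 66900 to 76800 CPM in HF_KO and 85700 to 122000 CPM in HF_TZD_KO, and 1 of the 2 adipocyte markers tested rose. The part of these cells was not tested. The call on Sesn2 was lost without any 1 of 8 of the 10 libraries (all but HF_TZD_KO replicates 1 and 5, adjusted p 0.0659 to 0.123).

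The test of the difference between the drug effects in knockout and control mice passed for 12 of 122, 6 in each direction, beside 1.56% higher and 0.892% lower among all genes. It gave -1.11 for Mgst3 (SE 0.19, edgeR adjusted p 0.00271), -0.89 for Abcc3 (SE 0.15, adjusted p 0.00276), -0.54 for Gpx4 (SE 0.12, adjusted p 0.0153), 0.48 for Prdx4 (SE 0.10, adjusted p 0.0119) and 0.41 for Hmox2, the constitutive heme oxygenase (SE 0.10, adjusted p 0.0312). The count of 12 was 4 to 12 with a library left out, and at most 7 without any 1 of 11 of the 20 libraries (HF_C replicate 1, 4 or 5, HF_KO replicate 2, 3, 4 or 5, HF_TZD_C replicate 1, 2 or 5, or HF_TZD_KO replicate 5). It was 5 with the replicate block and 3 in the fit of all 24 libraries. Mgst3, Abcc3, Gpx4 and Prdx4 passed with each library left out, while Prdx4 did not in the fit of all 24 (adjusted p 0.1). The call on Hmox2 was lost without any 1 of 11 of the 20 libraries (adjusted p 0.0527 to 0.0656), with library totals alone (0.177), without the filter (0.0508), in the fit of all 24 (0.0643) and with the block (0.0659). Of the hepatocyte markers, 7 of 12 were higher in the same test, and their part was not tested. For Hmox1 the same test gave -0.20 (interval -0.72 to 0.33, adjusted p 0.762).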

How the data were processed

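Per the labels, libraries were made from Trizol-extracted whole liver RNA without strand information. Per the submitters' processing notes, STAR 2.6.1, HTSeq 0.6.1 and DESeq2 were used, with GRCm38/mm10. The authors deposited 5 tables, each of a pair of groups, with read counts per gene and sample, which every test here starts from. The deposited normalized signal, counts over a size factor, was not used. The authors' FPKM are per kilobase of gene length, which is deposited in bases as another column. The authors' log2 fold changes, p-values and adjusted p-values were copied where named. The tables were joined by gene identifier, and 0 counts differed between them.

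Each comparison was fitted on its own libraries in R 4.3.3 with edgeR 4.0.16 (filterByExpr with minimum count 10, TMM, quasi-likelihood, two-sided, threshold 0.05). The difference of drug effects used the 20 libraries on the HFCF diet. Intervals are 95%. CPM were scaled over all 24 libraries. Depth was 19.5 to 28.7 M counts, and chi-square per degree of freedom between replicates ran from 11.6 to 73.6, far above counting error. The p-values set each difference against the spread between these libraries and treat the mice as independent. The labels do not say whether mice were independent litters, so this could not be checked. The code was tested on simulated data.

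Members, lists and tests were chosen with earlier results of these data known. Named were the 10 members and, from each of 9 pathway lists (NRF2 regulators and partners, other NRF2 targets, glutathione, thioredoxin and peroxiredoxin, superoxide and peroxide removal, oxidant producing enzymes, heme and iron, NADPH supply, selenoproteins), at most the 3 genes with the smallest adjusted p that passed in a comparison. One gene that this rule names is not reported here. A search for genes of like pattern was to follow for members passing in at least 2 stated comparisons. Marker lists covered hepatocyte, Kupffer cell, recruited macrophage, cholangiocyte, stellate cell, endothelial cell, lymphocyte, adipocyte and erythrocyte, and Lep is the 1 marker not used here. Alternatives were RLE scaling, library totals alone, no filter, DESeq2 1.42.0, 1 fit of all 24 libraries, a replicate block, and each library left out. Promoters are from RefSeq.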

Additional observations from a re-analysis of the deposited data

Results flagged for a closer look

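Single mice that stood apart from their group were sought in 55 groups of values, of which chance flags about 1 in 20. Both that were found concern Hmox1. In LF_C, replicate 4 stood at 15.9 CPM, below 33.3 to 35.5 CPM in the other 3 mice. In HF_TZD_C, replicate 2 stood at 67.7 CPM, above 41.1 to 48.5 CPM in the other 4 mice.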

How the results depend on the processing

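Gpx3 passed against LF_C in all 4 groups under every alternative tried, leaving out each library included (log2 fold change 1.67 to 2.63). No member passed between HF_KO and HF_C, or in the test of the difference, under any alternative. Of 1500 member values under alternatives, 1457 kept their call, 26 passed instead, 16 were lost and 1 reversed. A sign changed in 96 values of at most 0.24 (reported), 18 of them under library totals alone.

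Members that passed: HF_C vs LF_C 1, with library totals alone 3, with a library left out 1 to 2. HF_TZD_C vs HF_C 0, with a library left out 0 to 1. HF_TZD_KO vs HF_KO 0, with library totals alone 1 and without the filter 1 (Srxn1), in DESeq2 and in the fit of all 24 libraries 2 (Nqo1 and Srxn1), with a library left out 0 to 1. HF_TZD_KO vs HF_TZD_C 0, with library totals alone 3 (Gclc, Nfe2l2 and Srxn1). HF_KO vs LF_C 2, with library totals alone 3 (Nfe2l2 joining), in the fit of all libraries 1, with a library left out 1 to 2. HF_TZD_C vs LF_C 4, with library totals alone 4 (Nfe2l2 and G6pdx in place of Gclm and Keap1), with the replicate block 2, with a library left out 3 to 7. HF_TZD_KO vs LF_C 1, and 2 without the filter, in DESeq2, in the fit of all libraries and with the replicate block (Gclc joining Gpx3), with a library left out 1 to 2. With library totals alone, Keap1 in HF_TZD_C vs LF_C was 0.03 and Rpe, an NADPH supply gene not named above, was 0.01 against -0.26.

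All genes that passed: HF_KO vs HF_C 152, in DESeq2 370, in the fit of all libraries 90, with a library left out 64 to 186. HF_TZD_C vs HF_C 792, in DESeq2 1219, in the fit of all libraries 387, with the block 386, with a library left out 497 to 930. HF_TZD_KO vs HF_KO 107, with library totals alone 220, without the filter 201, in DESeq2 649, in the fit of all libraries 440, with the block 0, with a library left out 0 to 223. HF_TZD_KO vs HF_TZD_C 2387, with library totals alone 3656 (740 higher and 2916 lower, against 1246 and 1141, with the median of all genes at -0.16), with a library left out 1569 to 2695. The difference 376, in DESeq2 733, in the fit of all libraries 202, with the block 236, with a library left out 191 to 467. HF_TZD_KO vs LF_C 2189, in the fit of all libraries 4372, with a library left out 1112 to 3459. Library totals alone also moved the split of higher and lower calls, to 5309 and 886 from 3168 and 2835 in HF_C vs LF_C, to 4543 and 753 from 2934 and 2397 in HF_KO vs LF_C, to 6002 and 1187 from 3643 and 3191 in HF_TZD_C vs LF_C, to 1406 and 382 from 1388 and 801 in HF_TZD_KO vs LF_C, to 51 and 169 from 62 and 45 in HF_TZD_KO vs HF_KO, to 56 and 118 from 72 and 80 in HF_KO vs HF_C, and to 163 and 387 from 239 and 137 in the difference. The cause was not tested.

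With a library left out, the counts of list genes that passed under the diet ran from 3 to 6 for regulators, 7 to 10 for other targets, 13 to 16 for glutathione, 4 to 6 for heme and iron and 4 to 7 for selenoproteins. Same-numbered libraries of different groups correlated from -0.18 to 0.15 in their deviations. Such values cannot settle whether the numbers pair the mice, and the labels used here give no pairing. The replicate block is therefore an alternative only.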
